A study of Homo sapiens with 9 samples.

Results

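The genes described here encode 3 receptors of selective autophagy (SQSTM1, NBR1 and OPTN), 3 proteins of the ATG8 family (GABARAPL1, MAP1LC3B and GABARAPL2) and 4 regulators of autophagy (WIPI1, ULK1, TFEB and BECN1). They were chosen by gene name from the 62710 genes of the deposited expression table; the rule names genes and sets no threshold on a measured value, but the names were picked with earlier results of these data known. All 10 reached a mean normalized count of at least 10 over the libraries and were among the 15230 genes tested. mRNA was sequenced from A375R cells, a human melanoma line resistant to the BRAF inhibitor PLX4032, after 3 treatments with 3 libraries each. Control cells received DMSO, the solvent; their sample titles call them WT and give neither dose nor time, the column names of 2 of the 3 give 2 h, and the name DMSO comes from the study's design text and methods. VHL-r, a ligand of the ubiquitin ligase VHL, was given alone at 10 µM for 2 h. R4VPL3-1, in which a VHL ligand is joined through a linker to a ligand of the ubiquitin ligase RNF4, was given at the same dose for the same time. All libraries came from this 1 cell line, and the methods describe the 3 libraries of a treatment as independent biological repeats. The methods also list PLX4032 in the culture medium of A375R cells, and the sample titles do not name it. The sequencing methods do not state whether it was present during the treatments.

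In macroautophagy a double membrane closes around cytoplasmic cargo and the resulting autophagosome fuses with a lysosome, where the cargo is digested. The ULK1 kinase complex starts the process, the BECN1 lipid kinase complex marks the growing membrane with phosphatidylinositol 3-phosphate, WIPI proteins bind that lipid, and ATG8 proteins are attached to the membrane. Receptors such as SQSTM1 hold ubiquitin-tagged cargo and ATG8 proteins at the same time, and are themselves digested, so that the mRNA levels given here say nothing of autophagic flux or of protein amounts.

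Of the 10 genes, SQSTM1, MAP1LC3B and ULK1 rose after both compounds, and SQSTM1 was the single member called between the compounds. Sequence before a RefSeq start of these 3 genes is shown because the results turn on them, together with that of GABARAPL1, whose groups differed most among the members that did not pass the test between the compounds. The stretches are from RefSeq promoter windows on GRCh38.p14, read 5′ to 3′ on the + strand, which is the strand of all 4 genes, and capitals mark the letters of the motif named after each coordinate. The SQSTM1 stretch, chr5:179820707-179820877, covers bases 198 to 28 before the most downstream of its 3 listed starts, and capitals mark GC boxes (GGGCGG on either strand). The ULK1 stretch, chr12:131894372-131894621, is the 250 bases before its start, with GC boxes in capitals, and is the only one of the 4 that lies outside the annotated gene. The other 3 stretches lie before a RefSeq start but inside the span that the longest annotation gives the gene, and 250 of the 250 bases of the MAP1LC3B window and 168 of those of the GABARAPL1 window are exon of another annotated transcript of the same gene. For MAP1LC3B, chr16:87392280-87392309 holds a match to the core of the antioxidant response element (TGACNNNGC), and for GABARAPL1, chr12:10212836-10212865 holds a cAMP response element (TGACGTCA).
SQSTM1: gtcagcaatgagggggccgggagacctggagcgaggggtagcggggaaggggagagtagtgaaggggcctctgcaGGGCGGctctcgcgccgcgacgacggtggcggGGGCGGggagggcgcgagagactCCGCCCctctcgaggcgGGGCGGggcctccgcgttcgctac
ULK1: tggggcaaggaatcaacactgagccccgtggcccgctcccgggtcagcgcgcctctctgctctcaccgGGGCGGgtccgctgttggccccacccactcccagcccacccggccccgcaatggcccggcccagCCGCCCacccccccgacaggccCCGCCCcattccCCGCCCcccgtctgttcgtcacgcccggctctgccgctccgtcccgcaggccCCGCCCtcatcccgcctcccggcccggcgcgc
MAP1LC3B: gcgagtcaccTGACCAGGCtgcgggctgag
GABARAPL1: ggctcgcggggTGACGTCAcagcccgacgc

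Across all windows of 250 bases before a listed start, 16 belonged to the 10 members and 35116 to all genes of the RefSeq table, and both strands were searched. The GC box, the letters bound by SP1, was found for 9 of the 10 members, all except BECN1, and in 15 of their 16 windows, while 42.6% of all windows held it. The only BECN1 window, chr17:42823880-42824129, lies inside the span that the annotation gives the gene, as do some windows of other members. The 2 OPTN windows overlap each other. Member windows were 51.6% to 79.6% G or C, and the share among windows of like content was not determined, so nothing is read from this difference. The antioxidant response element core, bound by NFE2L2, occurred in 1 member window (MAP1LC3B) and in 10.9% of all windows. The cAMP response element occurred in the GABARAPL1 window and in 1.65% of all windows, and the heat shock element core (GAANNTTC) in a GABARAPL2 window and in 5.78% of all. No member window held the E-box CACGTG, which TFEB and its relatives bind and which 6.34% of all windows held. None held the AP-1 site TGANTCA (6.57% of all), the C/EBP-ATF core TGATGNAA (3.14%) or the FOXO site GTAAACA (2.98%) either. AP-1 sites can lie within the antioxidant response element core, and the FOXO, cAMP and GC box motifs were added after the windows had been seen. These matches describe letters in short windows and do not show binding.

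Recovered reads per library were between 26435568 and 32085626 with a median of 28165279, a depth at which counting error is small for all members except TFEB. Of the melanoma markers, SOX10, MITF, S100B and DCT were well detected, with DMSO means of 17547, 1722, 730.3 and 1347 normalized counts, whereas PMEL was low (29.9), TYR and TYRP1 had means below 10 and MLANA was listed at 0. SOX10 and MITF fell after both compounds, whereas S100B, DCT and PMEL were called in no comparison. The summed level of the 8 markers was 20733 to 22517 in DMSO, 11788 to 14670 after VHL-r and 10359 to 12525 after R4VPL3-1. Most of this sum was SOX10, with means of 17547, 10200 and 8405, so it mainly follows that 1 gene. Of 8 markers of other cell types, PTPRC, PECAM1 and EPCAM were below the mean of 10 and KRT5, KRT14, COL1A1, COL3A1 and DCN were above it. KRT14 was lower after R4VPL3-1 than in DMSO (log2 difference −0.47, limma adjusted p = 0.00104), and no other of these 5 was called in any comparison. The summed level of the 8 was 1895 to 2536 in DMSO, 1692 to 3401 after VHL-r and 1924 to 2450 after R4VPL3-1. The part of any of these markers in the results below was not tested, and in such bulk samples fewer cells of a type and less RNA per cell cannot be told apart.

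Set on a scale of normalized counts per kilobase of exon, the members spanned a wide range of levels. In DMSO the level of SQSTM1 was highest at 2186 per kilobase, followed by MAP1LC3B (627), GABARAPL2 (600.3), BECN1 (479) and NBR1 (475). WIPI1 (188), GABARAPL1 (146), OPTN (133) and ULK1 (116) formed the lower levels, and TFEB was last at 7.70 per kilobase. Neighbours in this order overlapped between libraries for MAP1LC3B with GABARAPL2 and for BECN1 with NBR1. ULK1 stood ninth in DMSO and seventh after either compound. After R4VPL3-1 its libraries overlapped those of both WIPI1 and GABARAPL1, its neighbours in the order, and after VHL-r they overlapped neither neighbour. Exon lengths are unions over annotated transcripts, so the order depends on the annotation. For MAP1LC3B, 5.38% of the 100-base windows of its exons also occur in MAP1LC3B2, and for the other 9 members none is shared with a listed relative.

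**Figure D1:**
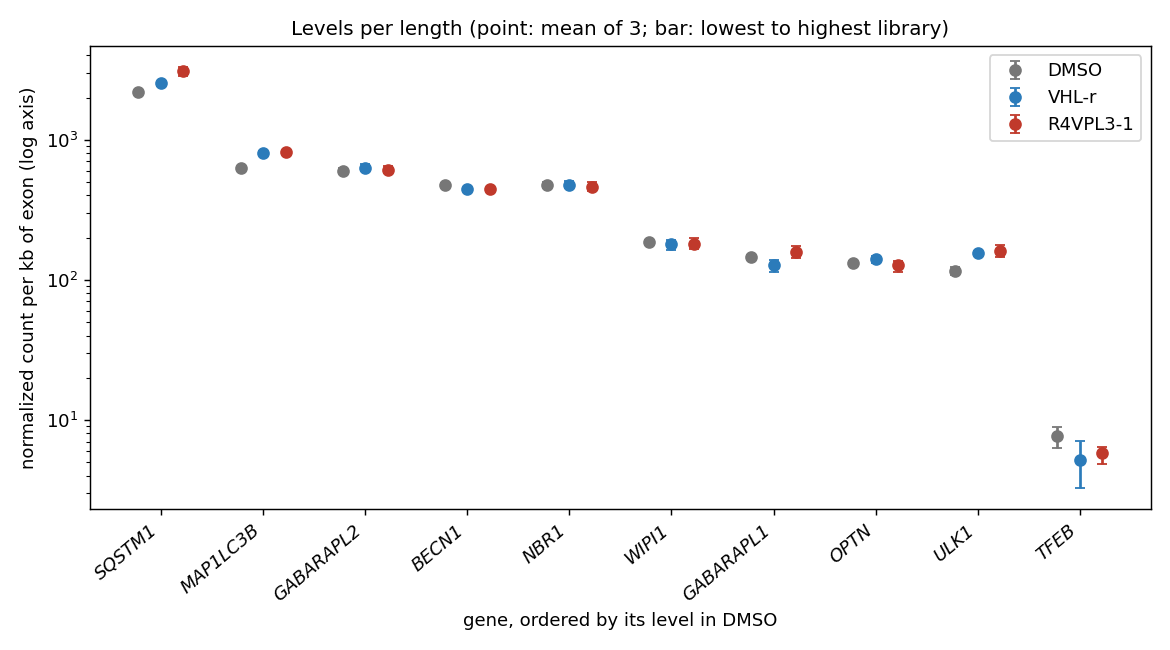
Normalized counts per kilobase of exon (log axis) for the 10 genes in the 3 treatments. Points are means of 3 libraries, bars run from the lowest to the highest library, and the genes are in order of their DMSO mean, from SQSTM1 at 2186 to TFEB at 7.70 per kilobase.

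SQSTM1 (p62; ENSG00000161011, GRCh38 chr5:179806398-179838078, + strand), the receptor that gathers ubiquitinated proteins into condensates, was the single member whose 3 treatments did not overlap in any pair. Its normalized counts were 16454, 16804 and 16160 in DMSO, 18133, 19441 and 19376 after VHL-r, and 24902, 23785 and 21342 after R4VPL3-1. The lowest R4VPL3-1 value exceeded the highest VHL-r value, and the lowest VHL-r value exceeded the highest in DMSO. The means were 16473 ± 322 in DMSO, 18983 ± 737 after VHL-r and 23343 ± 1821 after R4VPL3-1 (SD, n = 3 each). SQSTM1 rose 1.15-fold after VHL-r (log2 difference 0.20, SE 0.05, limma adjusted p = 0.00525) and 1.41-fold after R4VPL3-1 (0.50, SE 0.05, adjusted p = 1.52e-07). Between the compounds it was 1.23-fold higher after R4VPL3-1 (log2 difference 0.30, 95% interval 0.19 to 0.40, limma adjusted p = 0.00106). These folds are on the scale of log2(normalized count + 1), and the p-values were adjusted over all 15230 genes.

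NBR1 (ENSG00000188554, chr17:43170481-43211689, + strand), a receptor that acts with SQSTM1 on ubiquitinated cargo, and OPTN (ENSG00000123240, chr10:13099449-13138308, + strand), a receptor for damaged mitochondria and bacteria, passed the test in no comparison. NBR1 was measured at 3793, 4010 and 4164 in DMSO, at 3860, 3818 and 4263 after VHL-r, and at 3601, 3718 and 4186 after R4VPL3-1. OPTN was measured at 703, 691 and 653 in DMSO, at 725, 756 and 678 after VHL-r, and at 587, 700.4 and 693 after R4VPL3-1. For both genes the groups overlapped in every comparison. The 95% intervals bound what may have been missed: the log2 difference between R4VPL3-1 and DMSO was −0.06 for NBR1 (−0.18 to 0.06) and −0.05 for OPTN (−0.21 to 0.11).

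Of the ATG8 proteins, MAP1LC3B (LC3B; ENSG00000140941, chr16:87383953-87404779, + strand), the protein most used to mark autophagosomes, rose after either compound. Its normalized counts were 3173, 3203 and 3101 in DMSO, 3979, 4042 and 4175 after VHL-r, and 4106, 4206 and 3983 after R4VPL3-1. All 6 treated libraries lay above all 3 DMSO libraries, and the compounds overlapped each other. The means were 3159 ± 52.6, 4065 ± 100 and 4098 ± 112 (SD, n = 3 each). The rise was 1.29-fold after VHL-r (log2 difference 0.36, SE 0.04, limma adjusted p = 3.01e-06) and 1.30-fold after R4VPL3-1 (0.38, SE 0.04, adjusted p = 1.32e-06). Between the compounds the log2 difference was 0.01 with a 95% interval of −0.08 to 0.10 (adjusted p = 0.976).

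GABARAPL1 (ENSG00000139112, chr12:10212458-10223128, + strand), an ATG8 protein of the GABARAP subfamily, was called by limma in no comparison, and its means after the 2 compounds lay on opposite sides of the DMSO mean. Normalized counts were 607, 603 and 570 in DMSO (593 ± 20.2), 463, 517 and 565 after VHL-r (515 ± 51), and 703, 630 and 581 after R4VPL3-1 (638 ± 61.3; SD, n = 3 each). All VHL-r libraries lay below all libraries of the other 2 treatments, while R4VPL3-1 and DMSO overlapped. The log2 difference between VHL-r and DMSO was −0.21 (95% interval −0.38 to −0.03, limma adjusted p = 0.0932), that between R4VPL3-1 and DMSO was 0.10 (−0.07 to 0.28, adjusted p = 0.431), and that between the compounds was 0.31 (0.13 to 0.48, adjusted p = 0.0691). The call between the compounds depended on the tool, the model and single libraries. Its adjusted p was 0.0385 with DESeq2 on recovered reads and 0.048 with a replicate block, and over the 19 alternatives without that block it was between 0.0248 and 0.447, the lowest without R4VPL3-1 replicate 3 and the highest without R4VPL3-1 replicate 1. The VHL-r difference from DMSO passed the test without VHL-r replicate 3, the highest of that group (log2 difference −0.28, adjusted p = 0.0336).

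GABARAPL2 (GATE-16; ENSG00000034713, chr16:75566375-75577881, + strand), of the same subfamily, was measured at 1798, 1884 and 1739 in DMSO, at 1802, 1893 and 2015 after VHL-r, and at 1769, 1755 and 1947 after R4VPL3-1. The groups overlapped in every comparison. Its log2 differences from DMSO were 0.07 after VHL-r (95% interval −0.04 to 0.19, limma adjusted p = 0.429) and 0.01 after R4VPL3-1 (−0.11 to 0.13, adjusted p = 0.912).

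**Figure D2:**
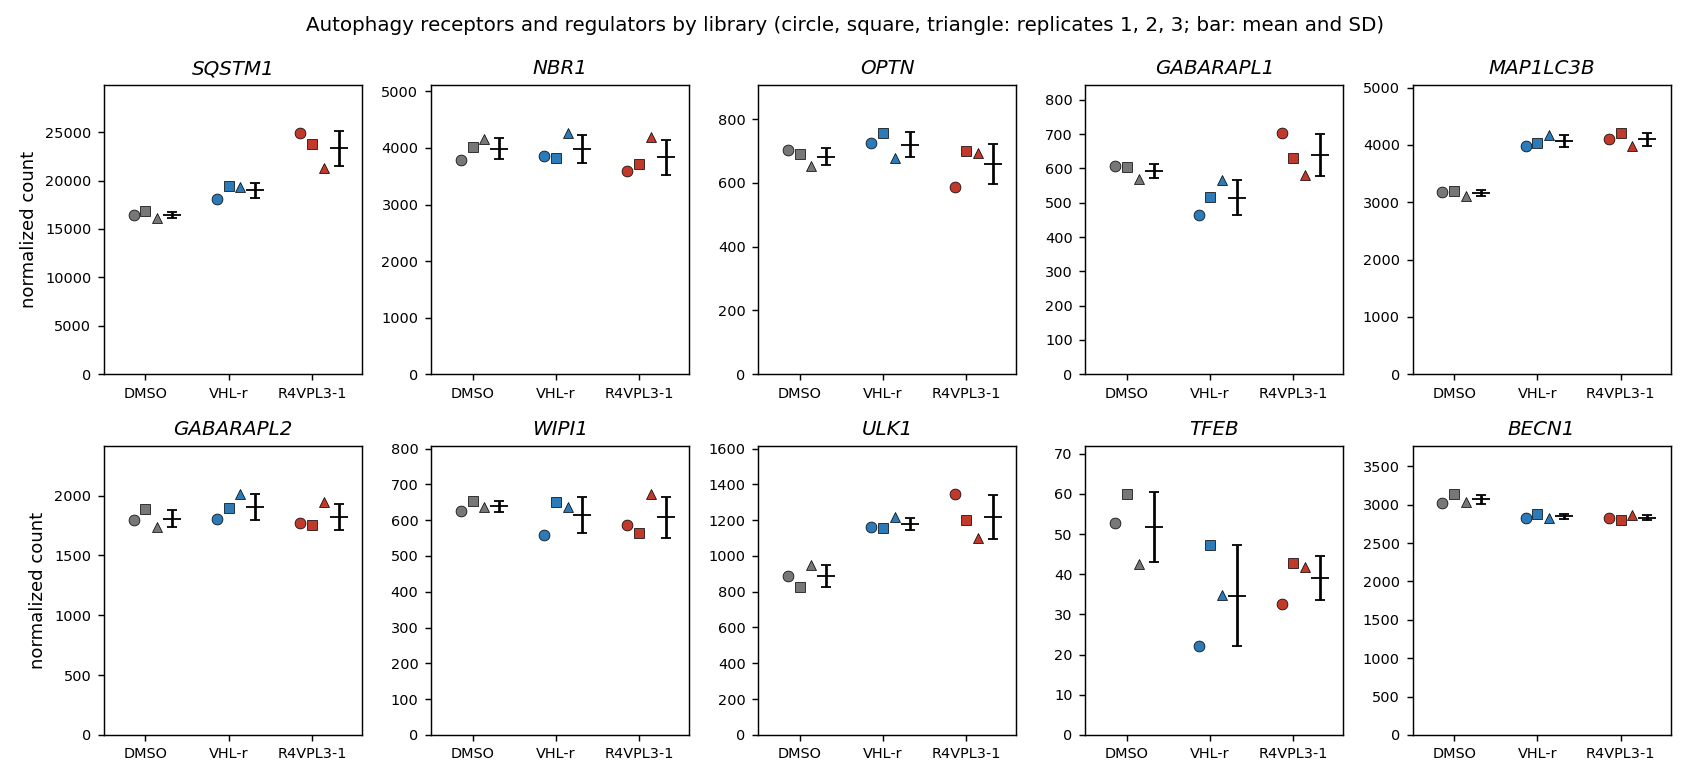
Normalized counts of the 10 genes in each of the 9 libraries, with a panel and an axis of its own for each gene. Circles, squares and triangles are replicates 1, 2 and 3 of a treatment, and the bar beside them gives their mean and SD. SQSTM1 steps up from 16473 in DMSO to 23343 after R4VPL3-1, and MAP1LC3B and ULK1 rise to similar levels after either compound.

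Among the regulators, ULK1 (ENSG00000177169, chr12:131894622-131923150, + strand), the kinase that starts autophagosome formation and is itself inhibited by mTORC1, rose after both compounds. Its normalized counts were 889, 823 and 947 in DMSO, 1161, 1153 and 1217 after VHL-r, and 1346, 1202 and 1101 after R4VPL3-1. Every treated library was above every DMSO library. The means were 887 ± 61.9, 1177 ± 34.6 and 1216 ± 124 (SD, n = 3 each). The rise was 1.33-fold after VHL-r (log2 difference 0.41, SE 0.07, limma adjusted p = 0.000229) and 1.37-fold after R4VPL3-1 (0.45, SE 0.07, adjusted p = 5.82e-05). The compounds overlapped, with a log2 difference of 0.04 (95% interval −0.11 to 0.19, adjusted p = 0.93).

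BECN1 (Beclin 1; ENSG00000126581, chr17:42810134-42833350, − strand), the scaffold of the lipid kinase complex, was the least variable member after treatment. It was measured at 3029, 3142 and 3041 in DMSO, at 2834, 2886 and 2829 after VHL-r, and at 2826, 2804 and 2867 after R4VPL3-1. All treated libraries lay below all DMSO libraries, yet neither difference passed the test. The log2 differences were −0.11 after VHL-r (95% interval −0.20 to −0.02, limma adjusted p = 0.0918) and −0.12 after R4VPL3-1 (−0.21 to −0.03, adjusted p = 0.0557). With a mean of at least 50 required of each gene, which leaves fewer genes to adjust over, the R4VPL3-1 value became 0.0453.

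WIPI1 (ENSG00000070540, chr17:68420948-68457513, − strand), which binds the lipid made by that complex, was measured at 625, 654 and 636 in DMSO, at 557, 650.2 and 638 after VHL-r, and at 585, 565 and 673 after R4VPL3-1. The groups overlapped and no comparison was called, with limma adjusted p of 0.554 to 0.98. TFEB (ENSG00000112561, chr6:41683978-41736259, − strand), the transcription factor of lysosomal and autophagy genes, had 22 to 61 reads per library, far fewer than the other members, and its values carry correspondingly more counting error. Its normalized counts were 52.7, 60.01 and 42.6 in DMSO, 22.02, 47.3 and 34.8 after VHL-r, and 32.7, 42.8 and 41.8 after R4VPL3-1. VHL-r overlapped DMSO through its replicate 2, and R4VPL3-1 overlapped DMSO through its replicate 2 as well. The log2 differences from DMSO were −0.61 (95% interval −1.14 to −0.09, limma adjusted p = 0.0946) and −0.39 (−0.92 to 0.13, adjusted p = 0.283). Without VHL-r replicate 2 the VHL-r difference passed the test (−0.86, adjusted p = 0.0298).

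Counted together, 3 of the 10 members were called higher and 0 lower after VHL-r against DMSO, where 19.8% of all tested genes were called, 10.3% higher and 9.51% lower. After R4VPL3-1 against DMSO 3 members were again called higher and 0 lower, with 24.9% of all genes called, 13.1% higher and 11.8% lower. At an unadjusted p under 0.05, limma had 3 members lower after VHL-r and 1 lower after R4VPL3-1, and edgeR and DESeq2 on recovered reads called 0 lower after either. Against DMSO the same 3 genes (SQSTM1, MAP1LC3B and ULK1) were called for each compound, and both comparisons use the same DMSO libraries. Between the compounds 1 member was called, SQSTM1, where 1.87% of all genes were called, 1.14% higher and 0.729% lower after R4VPL3-1. In that comparison 2 members were higher and 0 lower at an unadjusted p under 0.05, edgeR called 1 higher and 0 lower, and DESeq2 called 2 higher and 0 lower, the second being GABARAPL1. Between VHL-r and DMSO the groups of 3 members lay higher without overlap and of 2 lower, where 17.1% and 17.2% of all genes did (34.3% in either direction). Between R4VPL3-1 and DMSO 3 lay higher and 1 lower, where 19.1% and 18.9% of all genes did (38% in either direction). Between the compounds 2 lay higher and 0 lower, where 6.99% and 7.11% of all genes did (14.1% in either direction). The median log2 difference of the 10 members was 0.04, −0.02 and 0.00 in these comparisons, against −0.01 in each for all tested genes. The 3 called members thus stood beside 7 that were not called against DMSO.

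**Figure D3:**
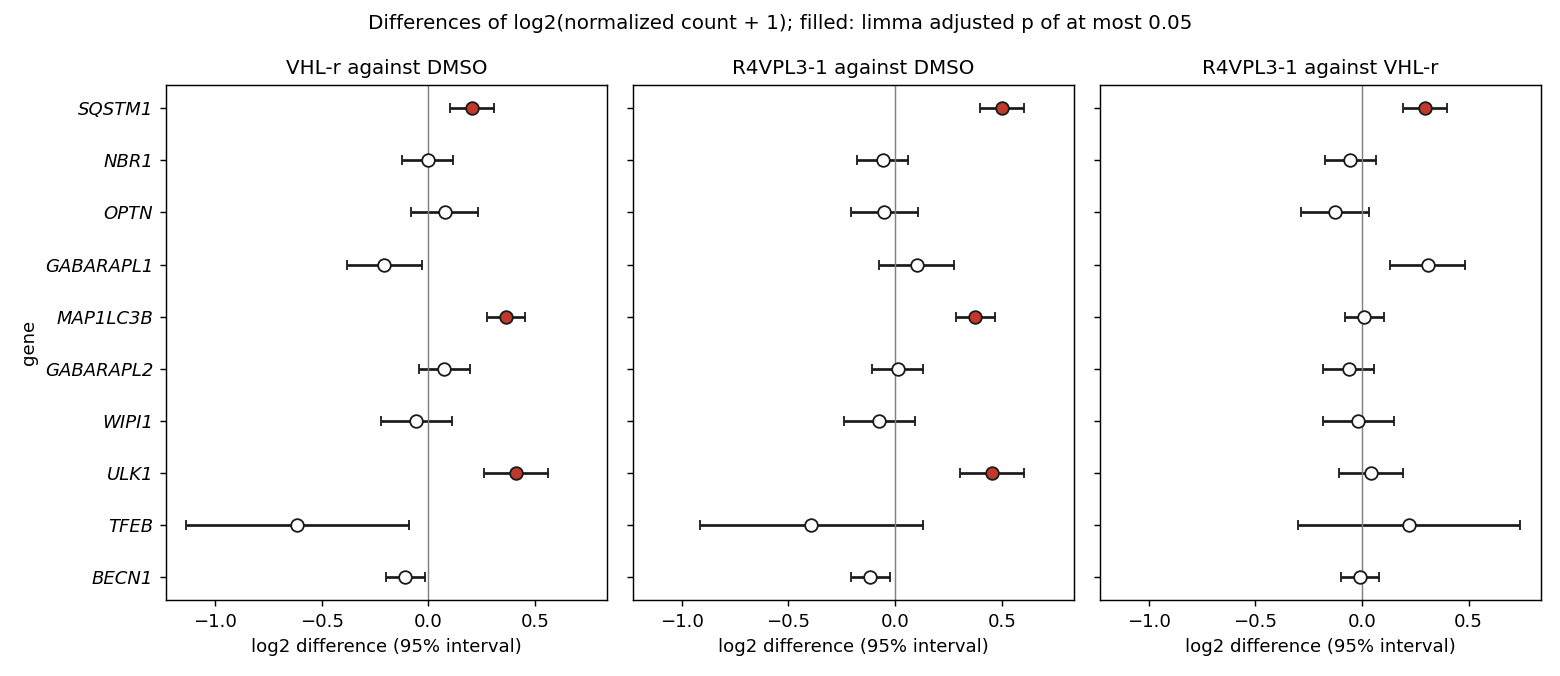
Log2 differences of the 10 genes in the 3 comparisons, on the log2(normalized count + 1) scale, with 95% limma intervals. Filled symbols passed an adjusted p of 0.05: SQSTM1 in all 3 comparisons, MAP1LC3B and ULK1 in both comparisons with DMSO.

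The members also differed in how closely their libraries agreed. The coefficient of variation within a treatment had a median over the 10 members of 3.60% in DMSO, 5.54% after VHL-r and 8.77% after R4VPL3-1, and its highest value was 36.4%, for TFEB after VHL-r. R4VPL3-1 replicate 3 was the lowest library of its group for SQSTM1, GABARAPL1, MAP1LC3B and ULK1, and the highest for NBR1, GABARAPL2, WIPI1 and BECN1. Without it the SQSTM1 difference between the compounds was 0.36 and its limma adjusted p was 3.46e-05. Over the 19 alternatives without the replicate block, left-out libraries included, the adjusted p of that difference stayed between 3.04e-06 and 0.0116. With that block the difference was also called.

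The genes around the members were taken from lists of 113 other autophagy, mTORC1 and lysosomal genes, of which 104 were tested. Of these, 10 were called higher and 7 lower after VHL-r against DMSO (16.3% called), 13 higher and 10 lower after R4VPL3-1 (22.1%), and 3 higher and 0 lower between the compounds (2.88%). These pooled shares are near those of all genes given above, and the median log2 differences of 0.03, 0.02 and −0.02 are near 0. Of the 17 genes called after VHL-r and the 23 after R4VPL3-1, 10 in each came from the list of TFEB relatives and mTORC1 control. The pooled shares therefore do not hold for each list.

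Of 17 other receptors tested, 1 was called higher after VHL-r and 3 higher and 1 lower after R4VPL3-1, which is 5.88% and 23.5% of them, against 19.8% and 24.9% of all genes. BNIP3, a mitophagy receptor, followed R4VPL3-1 like SQSTM1: it was measured at 4139, 4014 and 3884 in DMSO, at 4412, 4230 and 4456 after VHL-r and at 7000.2, 6136 and 5930 after R4VPL3-1, with no overlap between any 2 treatments. Its log2 difference was 0.66 from DMSO (limma adjusted p = 8.1e-09) and 0.54 from VHL-r (adjusted p = 1.45e-06), while VHL-r against DMSO was not called (0.12, adjusted p = 0.125). Its relative BNIP3L rose after R4VPL3-1 (0.28, adjusted p = 0.00194), the mitophagy receptor FUNDC1 fell (−0.26, adjusted p = 0.0157), and RTN3, a receptor for the endoplasmic reticulum, rose after both compounds (0.20 and 0.18, adjusted p = 0.00389 and 0.00824). Of 4 other ATG8 genes, MAP1LC3A and MAP1LC3B2 were tested and passed no test in any comparison, also at an unadjusted p under 0.05 and by edgeR or DESeq2, with MAP1LC3B2 at means of only 9, 12 and 14 normalized counts.

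Around the regulators most partners were not called, and neither were most of all genes (19.8% called after VHL-r, 24.9% after R4VPL3-1). Called after VHL-r and R4VPL3-1 were 25% and 25% of 4 ULK1 partners, and 10% and 20% of 10 conjugation genes. For 7 BECN1 partners the shares were 14.3% and 0%, and for 8 WIPI relatives and lipid transfer genes 25% and 25%. ATG101, a partner of ULK1, fell after both compounds (log2 difference −0.22 and −0.33, limma adjusted p = 0.0121 and 0.000367), opposite in sign to ULK1, and the other 3 partners tested were not called. In the conjugation machinery, ATG12, a ubiquitin-like protein needed to attach ATG8 to lipid, rose after both (0.24 and 0.30, adjusted p = 0.00457 and 0.000545), and ATG16L1 fell after R4VPL3-1 (−0.24, adjusted p = 0.00447). Of the 7 BECN1 partners, NRBF2 alone was called, higher after VHL-r (0.23, adjusted p = 0.0175). Of 8 WIPI relatives and lipid transfer genes, ATG2A, a lipid transfer protein, rose after both (0.33 and 0.40, adjusted p = 0.000162 and 1.45e-05), and VMP1, a lipid scramblase, fell after both (−0.21 and −0.26, adjusted p = 0.00353 and 0.000373).

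The list of TFEB relatives and mTORC1 control held the largest differences, with 10 of 20 tested genes called after each compound (50%, against 19.8% of all genes after VHL-r and 24.9% after R4VPL3-1). The called genes went both ways, 5 higher and 5 lower after VHL-r and 6 higher and 4 lower after R4VPL3-1. The largest rises were those of inhibitors of mTORC1 signalling. SESN2, a leucine sensor induced under stress, had means of 600.2, 1578 and 2256 normalized counts in DMSO, VHL-r and R4VPL3-1, and was called in all 3 comparisons (log2 difference 1.39, 1.91 and 0.52, limma adjusted p = 2.43e-11, 7.46e-14 and 0.000134). DDIT4 (REDD1), an inhibitor of mTORC1 acting through TSC2, was measured at 3215, 3355 and 3226 in DMSO, at 2073, 2392 and 2318 after VHL-r, and at 18120, 16346 and 10017 after R4VPL3-1. It fell after VHL-r (−0.53, adjusted p = 0.00477) and rose after R4VPL3-1 (2.14, adjusted p = 7.26e-11), and the difference between the compounds was 2.67 (adjusted p = 1.15e-11). SESN3 rose to a like level after both compounds, with means of 206, 827 and 844 (2.06 and 2.09, adjusted p = 6.47e-09 and 3.06e-09). MITF, a relative of TFEB that directs melanocyte genes, fell after both (−0.71 and −0.77, adjusted p = 4.02e-05 and 9.87e-06).

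Lysosomal genes of the CLEAR network are targets of TFEB. Of 19 tested, 0 were called by limma after VHL-r or between the compounds, where 1 in each passed an unadjusted p under 0.05 and edgeR and DESeq2 called 0, and 1 was called after R4VPL3-1, GLA, a lysosomal galactosidase (0.27, limma adjusted p = 0.00105). Of all genes, 19.8% were called after VHL-r, 24.9% after R4VPL3-1 and 1.87% between the compounds. The median log2 difference of the 19 genes was 0.03 after VHL-r and 0.02 after R4VPL3-1, and their range after R4VPL3-1 was −0.09 to 0.27. Of 13 fusion genes, 7.69% were called after VHL-r and 15.4% after R4VPL3-1, against 19.8% and 24.9% of all genes. EPG5, a tether, rose after both compounds (0.24 and 0.29, limma adjusted p = 0.0345 and 0.00927) and VPS18 fell after R4VPL3-1 (−0.40, adjusted p = 0.000287). Of 4 regulators of the receptors, 0% were called by limma after VHL-r and 25% after R4VPL3-1. After VHL-r, 2 of the 4 were lower at an unadjusted p under 0.05, and edgeR and DESeq2 called 0. The groups of 3 lay lower than DMSO without overlap after VHL-r, where 17.2% of all genes did. NFE2L2, a transcription factor that SQSTM1 can release from KEAP1, fell after R4VPL3-1 (−0.26, limma adjusted p = 0.000365), and TBK1, a kinase of OPTN and SQSTM1, was not called in any comparison. For CTSD, FLCN, FNIP1, VPS33A and STBD1 the table lists 0 in every library, and for MAP1LC3C, GABARAP, TFEC and HEXA a mean below 10. Since CTSD is used by most cells, nothing is read from these values.

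**Figure D4:**
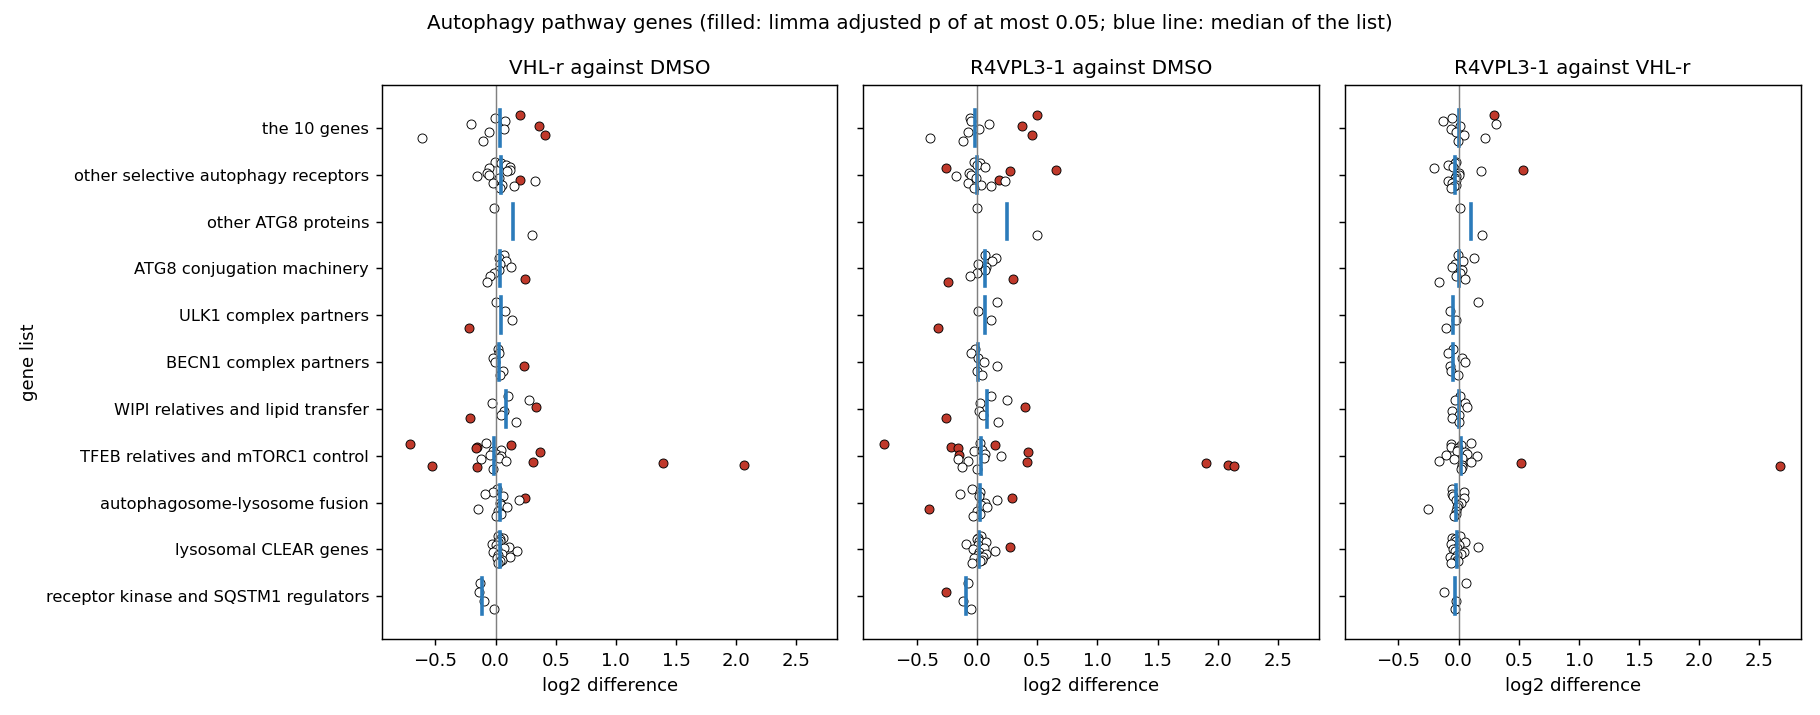
Log2 differences on the log2(normalized count + 1) scale of the tested genes of each list, in the 3 comparisons. Each point is a gene, filled where it was called, and the blue line is the median of the list. In R4VPL3-1 against DMSO, DDIT4, SESN2 and SESN3 stand farthest from 0, and the lysosomal CLEAR genes lie between −0.09 and 0.27.

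The patterns most like those of the leading members were sought over the 9 libraries as the root mean square difference of log2 values centred on each gene's own mean. For MAP1LC3B the nearest genes were CDR2 (0.0369), POLG (0.0375), TRAFD1 (0.0406), DYNLL2 (0.0407) and PDE4DIP (0.0427), where the median over all tested genes was 0.224. For SQSTM1 they were OSER1 (0.054), ZNF394 (0.0566), FTL (0.0589), SIAH2 (0.0615) and HK2 (0.0626), against a median of 0.255. All of these values describe likeness in the same 9 libraries.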

How the data were processed

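The authors aligned 100-base single reads of poly(A)-selected, strand-marked libraries to GRCh38 with STAR, used htseq-count, in its reverse mode, to count reads per gene and normalized them with DESeq2 1.36.0, and the deposited values are this normalized signal, counts divided by a size factor per library. A read on exons of more than 1 gene is not assigned by such counting. Whole reads were recovered for at least 99.996% of values above 0, within a rounding tolerance of 0.005. As the deposited values are normalized, log2(value + 1) was tested with limma 3.58.1 (R 4.3.3, trend option) in a single-factor fit of all 9 libraries over 15230 genes with a mean of at least 10. p-values were adjusted by Benjamini-Hochberg over all of them and called at 0.05. An exact permutation test of 3 against 3 cannot go below 0.1. Recovered reads were also tested with edgeR 4.0.16 and DESeq2 1.42.0. The remaining alternatives changed the pseudocount, the filter, the scaling or the threshold, or used a replicate block or left out each library in turn. The fits were tested on simulated data. Members and lists were chosen with earlier results of these data known. Named beside the members were the 4 genes per list with the lowest adjusted p, every listed gene called between the compounds, and the 5 genes most like the member with the lowest adjusted p of each comparison. The lists' marker genes and the genes listed at or near 0 were added to these. Coordinates match GENCODE 44 for all 10 members.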

Additional observations from a re-analysis of the deposited data

How the results depend on the processing

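Of 627 alternative values for the 30 member differences, 600 kept direction and side of the threshold, 7 newly passed it, 20 changed sign and 0 calls were lost. The 7 main calls therefore held under every alternative run. The number of members called was 3 for each compound against DMSO, except 4 after VHL-r without VHL-r replicate 2 (TFEB) or replicate 3 (GABARAPL1), and 4 after R4VPL3-1 with a mean of at least 50 (BECN1). Between the compounds it moved from 1 to 2 with DESeq2 on recovered reads and, over left-out libraries, was 1 to 2, GABARAPL1 being the second. With the replicate block it was also 2 (GABARAPL1 adjusted p = 0.048) and 389 rather than 285 genes were called. Same-numbered libraries correlated at −0.006 to 0.121 in deviation from their group means, 2 of 9 pairs above 0.1, so by the rule that every pair exceed 0.1 they were not treated as paired. The best match carried the library's own number in 12 of 18 cases, a hint from the data that numbers may be shared. In the column names the libraries also run in order of replicate number, with the 3 treatments of a number side by side. The methods used a single-factor model and state no pairing, so what same-numbered libraries share is not given.

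Sign changes befell 9 differences, none of them called. NBR1 after VHL-r was 0.004 with upper quartile scaling, 0.001 with edgeR and −0.054 to 0.028 over left-out libraries. BECN1 between the compounds was 0.001 with upper quartile scaling and −0.018 to 0.0 over left-out libraries. Over left-out libraries, WIPI1 after VHL-r was −0.098 to 0.013, OPTN after R4VPL3-1 −0.096 to 0.031 and GABARAPL2 after R4VPL3-1 −0.036 to 0.043. Between the compounds MAP1LC3B was −0.007 to 0.032, WIPI1 −0.094 to 0.033, ULK1 −0.033 to 0.112 and TFEB −0.063 to 0.471. Over all genes, 1885 and 2494 passed an adjusted p of 0.01 against DMSO rather than 3016 and 3792 at 0.05, and without R4VPL3-1 replicate 1 182 rather than 285 passed between the compounds. The cause was not tested. TFEB was not tested at a mean of at least 50. Low read numbers limit TFEB, and 3 libraries per treatment limit differences as small as those of BECN1.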
